A study of Mus musculus with 42 samples.

Results

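HOXC9 binding was compared between embryoid bodies (EBs) that received no patterning signals and EBs patterned towards spinal motor neurons, collected at day 3. EBs are floating aggregates of embryonic stem cells, and chromatin immunoprecipitation sequencing (ChIP-seq) reads where a protein sits on DNA. The comparison took 4 of the 42 samples of the series, with 2 libraries per stage. All 4 came from mouse Ainv15 cells labelled iFlag.Hoxc9, in which doxycycline (Dox) turns on a single Flag-tagged copy of Hoxc9 inserted beside Hprt on the X chromosome, and all were made with the same Flag antibody. The EB libraries were taken after 12 h of Dox with no retinoic acid (RA) and no smoothened agonist (SAG, an activator of Hedgehog signalling). The day 3 libraries came from EBs kept in RA and SAG from day 0 and given Dox on day 2 for 24 h. HOXC9 thus came from a transgene at both stages, in 1 cell line.

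The members are binding events, the single-base positions that the authors' peak caller placed, each with an estimated number of ChIP reads. The EB list held 128322 events and the day 3 list 74067 events on chromosomes 1 to 19 and X. Each list was ranked by its own estimated ChIP reads and its highest 10000 events were kept, so that 20000 of 202473 events entered. A site was called shared when any event of the other list lay within 100 bp. This gave 5511 EB-only sites and 4489 shared sites in the EB ranking, and 3140 day 3-only sites and 6860 shared sites in the day 3 ranking. The shared sites are kept as 2 sets below, shared sites ranked in EBs and shared sites ranked at day 3, because each ranking picked its own strongest sites.

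HOX proteins are homeodomain transcription factors that give cells their position along the head-to-tail axis. HOXC9 belongs to the posterior group, related to fly Abd-B, and marks the thoracic spinal cord, where it separates thoracic motor neurons from those of the limb levels. HOX homeodomains recognise short AT-rich DNA, posterior members favour TTTAT over the TAAT core, and partner proteins of the MEIS and PBX families bind DNA next to them. Comparing unpatterned EBs with EBs differentiating into neurons at day 3 asks how far the sites of one factor follow the cell it is expressed in.

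Sequences from the highest-ranked sites give examples of the HOXC9 windows of each class. Each is the reference sequence from 50 bp before to 50 bp after the event, plus strand, GRCm38 (mm10), with matches on either strand to TTTAT, TAAT and the octamer ATGCAAAT in capitals. Windows that overlapped an annotated exon were not used. The first EB-only window is the strongest of its class, nearest to Cdkn2aip, and the other 2 are the strongest near a gene of the pluripotency list and near one of the epiblast list.
EB-only near Cdkn2aip, chr8:47726945-47727045: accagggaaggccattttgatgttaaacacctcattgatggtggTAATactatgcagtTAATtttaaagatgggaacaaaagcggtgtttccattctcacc
EB-only near Klf4, chr4:55519808-55519908: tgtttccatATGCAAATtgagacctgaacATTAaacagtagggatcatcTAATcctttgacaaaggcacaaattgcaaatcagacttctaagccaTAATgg
EB-only near Etv5, chr16:22411934-22412034: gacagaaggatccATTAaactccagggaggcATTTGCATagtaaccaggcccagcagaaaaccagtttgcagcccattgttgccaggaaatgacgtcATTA
None of these 3 windows held TTTAT, while those near Klf4 and Etv5 each held 1 octamer, the sequence bound by POU factors such as OCT4. They are not typical, since over all EB-only sites 44.71% held TTTAT and 2.94% the octamer.

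The next 4 windows stand for the sites found at both stages, the strongest in EBs and at day 3 and those of a HOX cofactor gene and a Hox gene. The strongest at day 3 lay 98.9 kb from its nearest TSS, that of Slc25a26.
Shared near Crybg3, chr16:59588377-59588477: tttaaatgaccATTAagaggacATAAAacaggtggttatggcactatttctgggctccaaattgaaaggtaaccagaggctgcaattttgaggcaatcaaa
Shared near Pbx3, chr2:34365049-34365149: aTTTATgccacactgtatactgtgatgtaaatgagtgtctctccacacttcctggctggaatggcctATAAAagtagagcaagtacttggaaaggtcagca
Shared near Slc25a26, chr6:94401371-94401471: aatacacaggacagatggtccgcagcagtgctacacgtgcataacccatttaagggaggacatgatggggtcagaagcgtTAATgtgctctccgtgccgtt
Shared near Hoxc4, chr15:103035316-103035416: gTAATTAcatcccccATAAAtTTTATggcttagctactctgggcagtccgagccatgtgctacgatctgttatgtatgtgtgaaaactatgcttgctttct
The Pbx3 and Hoxc4 windows each held TTTAT 2 times, the Crybg3 window 1 time, and the Slc25a26 window had 1 TAAT alone.

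Day 3-only sites are represented by the strongest of the class and by the strongest near a patterning gene of ventral progenitors, which lay 38.2 kb from Olig2. The strongest of the class is labelled by its nearest gene, Prdm2, whose TSS lay 320 kb away.
Day 3-only near Prdm2, chr4:142875179-142875279: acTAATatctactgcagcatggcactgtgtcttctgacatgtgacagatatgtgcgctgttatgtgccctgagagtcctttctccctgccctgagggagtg
Day 3-only near Olig2, chr16:91187172-91187272: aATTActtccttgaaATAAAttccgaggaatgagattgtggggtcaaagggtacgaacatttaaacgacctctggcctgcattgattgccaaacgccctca
Each of the 2 windows held 1 TAAT, and the Olig2 window also held 1 TTTAT. These few windows illustrate the classes, whose shares over all sites are given further on.

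The libraries differed between and within the stages. The share of ChIP reads that the peak caller assigned to signal was 0.476 ± 0.0212 (SD, n = 2) in EBs, and at day 3 it was 0.174 and 0.398 in the 2 libraries. Aligned reads were 30 M and 32.5 M in the EB libraries and 25.6 M and 26.8 M in the day 3 libraries, with control libraries of 10.5 M and 20.6 M. Stage, hours of Dox, control library and sequencing run changed together and cannot be told apart. Cell composition was not measured in these files.

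Of the top 10000 EB sites, 44.89% (95% Wilson interval 43.9 to 45.9) had a day 3 event, and of the top 10000 day 3 sites 68.6% (67.7 to 69.5) had an EB event. The day 3 share was 23.7 percentage points higher, with a 95% Newcombe interval of 22.4 to 25 for the difference. Moving the top sites by 10 kb left 0.9% and 1.46% with an event of the other list. Intervals here cover the counting of sites alone, since each list pools its 2 libraries and no file gives event values per library.

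The size of this difference depended on list length. When only the top 10000 of the other list counted, 18.26% of EB sites and 17.4% of day 3 sites were shared, and the difference was -0.86 points (-1.92 to 0.201). With the EB list reduced to the length of the day 3 list, 55.62% of day 3 sites were shared and the difference was 10.7 points (9.35 to 12.1). Many partners of strong sites stood low in the longer list. Shared sites ranked at day 3 had a median rank of 28567 of 128322 in the EB list, and shared sites ranked in EBs a median rank of 14792 of 74067 at day 3. Across shared sites the reads at the 2 stages followed each other weakly, with Spearman's rho of 0.14 in the EB set and 0.19 in the day 3 set, given as a description because sites of one list share their libraries. The paired events lay close together, with a median offset of 19 and 18 bp.

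Sharing fell with rank at both stages. Among the strongest 1000 sites 61.3% of EB sites and 88.6% of day 3 sites were shared, against 38.5% and 57.4% among ranks 9001 to 10000. Shared sites also had more reads, with a median of 977 estimated reads against 854 for EB-only sites, and 553 against 451 for day 3-only sites. Reads are not comparable between the 2 lists. The last sites inside the limit had 552.8 reads in EBs and 316.4 at day 3, and the sites just outside had the same values to 1 decimal. Around the distance limit, 606 EB sites had a day 3 event 50 to 100 bp away and 292 at 100 to 200 bp. The same counts for day 3 sites were 895 and 370.

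**Figure D1:**
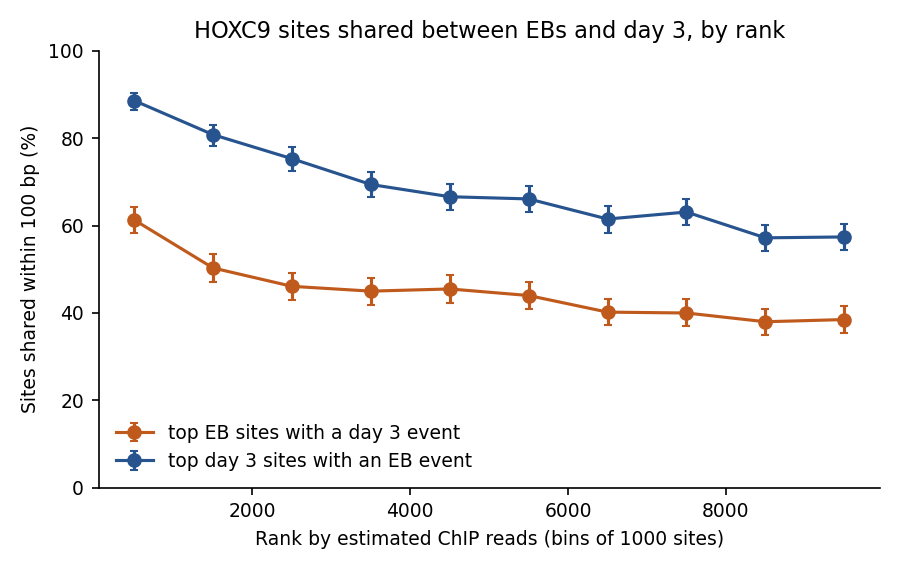
Share of HOXC9 sites with an event of the other stage within 100 bp (y axis, %) by rank in their own list (x axis, bins of 1000 sites). Points are shares with 95% Wilson intervals, and both lines fall, from 61.3% to 38.5% for EB sites and from 88.6% to 57.4% for day 3 sites.

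Few HOXC9 sites of any class lay in promoters, and EB-only sites lay closer to genes than day 3-only sites. A promoter was counted as the 1 kb to each side of a transcription start site (TSS) of a protein-coding gene in GENCODE vM21. Promoters held 122 of 5511 EB-only sites, or 2.214% (1.86 to 2.64), and 34 of 3140 day 3-only sites, or 1.083% (0.776 to 1.51). The difference was 1.13 points (0.575 to 1.65). With promoters of 500 bp it was 0.37 points (-0.029 to 0.73), and the interval then included 0. Windows of 1 kb to each side of a TSS cover 2.43% of the genome, and both shares at that width were below it. With the start sites of all annotated genes, non-coding included, the promoter difference was 2.37 points (1.51 to 3.2).

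Of the shared sites ranked in EBs 2.205% lay in promoters, and the difference of EB-only sites from them was 0.00836 points (-0.583 to 0.584). At day 3 the shared sites had 1.574%, and day 3-only sites were -0.492 points from it (-0.937 to 0.0125). Both of these intervals included 0.

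The distance to genes showed a larger gap. The median distance to the nearest TSS was 50.8 kb for EB-only sites, 61.0 kb for shared sites ranked in EBs, 86.6 kb for shared sites ranked at day 3 and 98.3 kb for day 3-only sites. EB-only sites over 50 kb from every TSS made up 50.37% (49.1 to 51.7), against 65.16% (63.5 to 66.8) of day 3-only sites, a difference of -14.8 points (-16.9 to -12.6). Shared sites had 54.91% in the EB ranking and 63.72% in the day 3 ranking, and so stood apart in the same direction. EB-only sites were -4.54 points from the shared sites ranked in EBs (-6.5 to -2.57). Day 3-only sites were 1.44 points from the shared sites ranked at day 3, with an interval that included 0 (-0.586 to 3.45). In the genome the share is 54%. With the start sites of all annotated genes the difference between EB-only and day 3-only sites was -7.04 points (-8.93 to -5.17). The band of 1 to 10 kb held 17.29% of EB-only and 8.471% of day 3-only sites, 8.82 points apart with an interval that excluded 0. Over 500 kb from a TSS lay 6.587% of EB-only sites and 12.58% of day 3-only sites.

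Introns held 43.97% of EB-only and 42.26% of day 3-only sites, and the difference of 1.71 points had an interval that included 0 (-0.467 to 3.87). Against their own shared sets both private classes had a lower intronic share, with differences of -3.1 points in EBs (-5.06 to -1.14) and -2.33 points at day 3 (-4.41 to -0.235). Exons held 1.216% and 1.146% of the private sites. On chromosome X, which carries the transgene, lay 2.395% of EB-only and 1.401% of day 3-only sites, and leaving that chromosome out changed the promoter difference to 1.08 points. The shared sets had 1.738% and 1.443% there. Any part of the transgene in these shares was not tested.

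**Figure D2:**
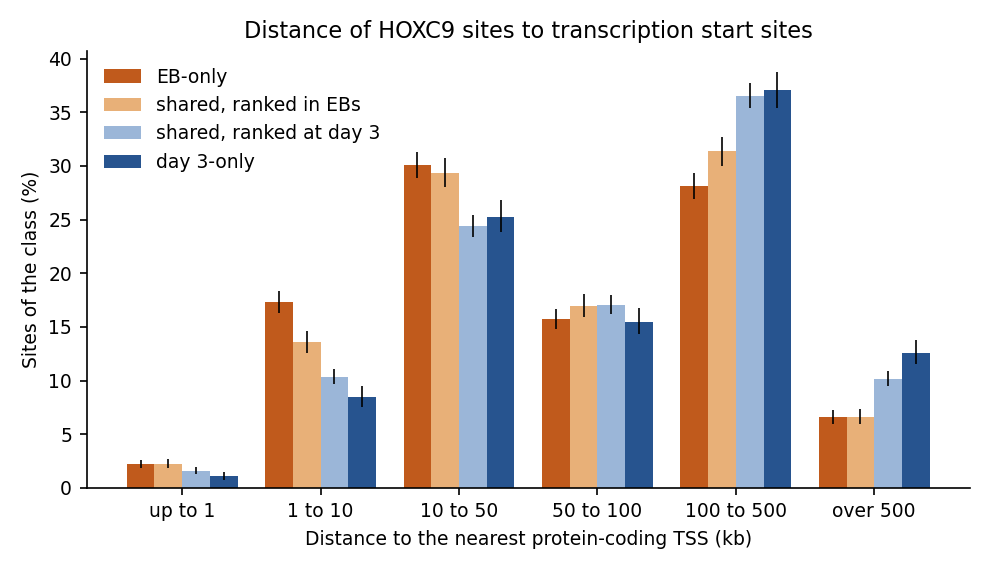
Share of the sites of each class (y axis, %) by distance to the nearest TSS of a protein-coding gene (x axis, kb). Bars are shares with 95% Wilson intervals. From 1 to 10 kb the bars step down from 17.29% of EB-only to 8.471% of day 3-only sites, and from 100 to 500 kb they step up from 28.09% to 37.1%.

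Events of the other stage lay near many private sites, and both lists are dense. Within 10 kb of 47.67% of EB-only sites lay some day 3 event, and within 10 kb of 66.37% of day 3-only sites lay some EB event. Of the genome, 32.2% lies within 10 kb of a day 3 event and 47% within 10 kb of an EB event, so the 2 shares have different backgrounds. Within 1 kb, 14.95% of EB-only sites had a day 3 event and 25.48% of day 3-only sites had an EB event. Part of each private class thus lay close to binding at the other stage. Sites of a class also lay in groups, with another site of the same class within 10 kb for 29.18% of EB-only and 22.13% of day 3-only sites, against 35.31% and 35.38% for the shared sets. The classes differ in size, and 3.53% and 2.11% of the genome lies within 10 kb of an EB-only and of a day 3-only site. The part of class size in this pair of shares was not tested.

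TTTAT, the posterior HOX motif, was found least often at EB-only sites. Within 50 bp of the event it occurred at 44.71% (43.4 to 46) of EB-only sites and 59.01% (57.3 to 60.7) of day 3-only sites, a difference of -14.3 points (-16.5 to -12.1). Shared sites held it at 68.46% in the EB ranking and 69.31% in the day 3 ranking, above both private classes. Windows of the same length 1 kb to each side held it at 32.8% to 35.5%. The excess over those windows was 11.7 points for EB-only sites and 23.5 points for day 3-only sites.

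Base composition moved with the classes. The median GC content of the windows was 43.6% at EB-only sites and 40.6% at day 3-only sites, 2.97 points apart, while the windows 1 kb away had 42.6% and 41.6%. TTTAT is itself AT-rich. Within bands of GC content the difference was smaller than the -14.3 points over all sites. It was -6.5 points (-12 to -1.12) under 35% GC, -11.4 points (-14.2 to -8.42) from 35% to under 45%, and -5.94 points (-9.89 to -2.06) at 45% and over. Within 10 bp of the event itself TTTAT occurred at 14.23% of EB-only and 23.73% of day 3-only sites, -9.5 points apart (-11.3 to -7.76).

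The homeodomain core TAAT was common in all classes, at 67.19% of EB-only and 73.28% of day 3-only sites (-6.09 points, -8.06 to -4.09). TTTAC, a variant of the posterior motif, ran the other way, at 29.58% against 25.76% (3.81 points, 1.85 to 5.75). Windows 1 kb from EB-only and day 3-only sites held TAAT at 52% and 54.7%, and TTTAC at 19.4% and 20.5%. Such short motifs are thus also frequent away from the events. TGATTTAT, in which a PBX half-site adjoins the posterior HOX motif, was at 0.8165% of EB-only sites, close to 0.762% in the windows 1 kb away. Day 3-only sites held it at 5.764% and shared sites at 3.765% and 5.539%. Every TGATTTAT also contains TTTAT.

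Motifs of other factor families differed between the private classes, with smaller gaps to the shared sites of the same stage for some. ATGCAAAT, the POU octamer, occurred at 162 EB-only sites (2.94%) and 16 day 3-only sites (0.5096%), 2.43 points apart (1.91 to 2.95). The windows 1 kb away held it at 0.726% and 0.669%. Shared sites held the octamer at 2.272% in the EB ranking and 1.268% in the day 3 ranking. EB-only sites stood 0.667 points above the shared sites ranked in EBs (0.0345 to 1.29). ACAAAG, the core of the SOX motif, was at 20.58% and 13.09% (7.49 points, 5.88 to 9.06), and at 16.66% and 14.9% of the shared sets. Windows 1 kb from the private sites held ACAAAG at 9.34% and 9.94%. TGACAG, the MEIS motif, was at 5.589% of EB-only and 12.9% of day 3-only sites (-7.31 points, -8.66 to -6.01). Windows 1 kb from EB-only sites held it at 6.71%. The shared sets held TGACAG at 8.465% and 11.52%, and day 3-only sites stood 1.38 points above the latter (0.013 to 2.8). AAGGTCA, a half-site of nuclear receptors, was at 1.633% and 7.006% (-5.37 points, -6.37 to -4.45), and at 3.119% and 4.023% of the shared sets. GGGTGTG, a motif of KLF factors, was at 1.198% and 1.274%, with an interval that included 0 (-0.0763 points, -0.599 to 0.391). A match of letters is not evidence of binding by the named factor, and no such factor was assayed here besides MEIS and PBX.

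**Figure D3:**
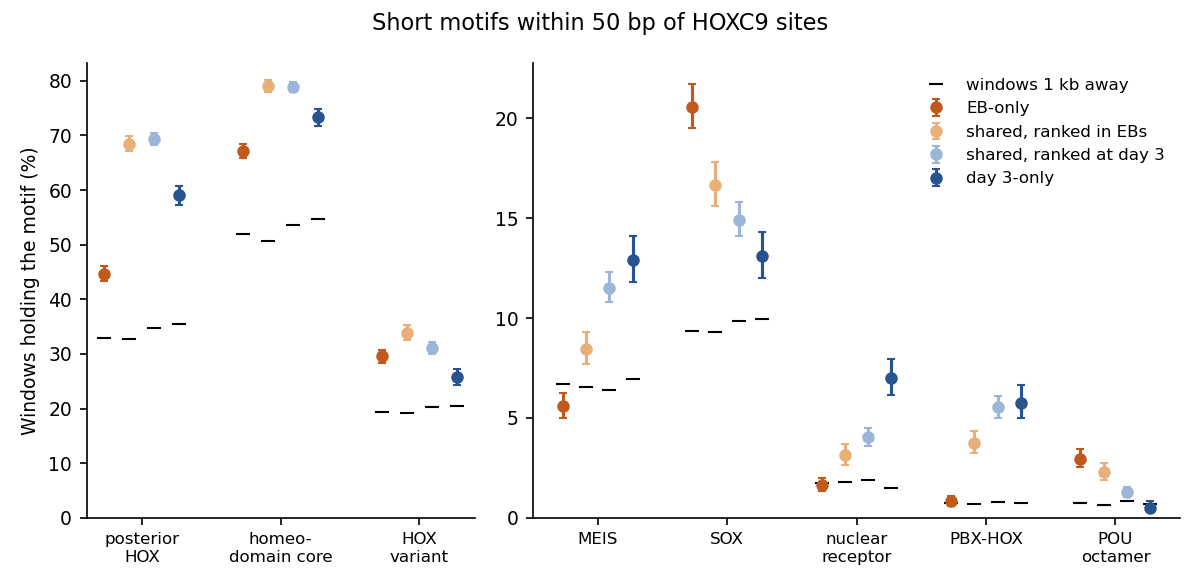
Share of windows of 50 bp to each side of the event that hold a motif on either strand (y axis, %; the panels have different scales) for 8 motifs (x axis). Points are shares with 95% Wilson intervals and black bars the shares 1 kb to each side. Posterior HOX (TTTAT) is lowest at EB-only sites (44.71%), and the MEIS (12.9%) and nuclear receptor (7.006%) motifs are highest at day 3-only sites.

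CpG content and repeats also differed. No CpG was present in 49.3% of EB-only windows and in 40.8% of day 3-only windows (8.54 points, 6.36 to 10.7). Windows that were repeat-masked over most of their length made up 7.89% of EB-only, 3.72% and 1.79% of shared and 1.31% of day 3-only sites, while 34.3% of the genome is masked. The authors kept only reads with a single best place in the genome.

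Other lists, whose events the choice of sites did not use, differed between the classes. The rule did choose EB-only sites for having no day 3 HOXC9 event, and day 3-only sites for having no EB one. Low shares in lists of the stage that a class lacks, day 4 included, are therefore partly built in. How far was not tested. The figure for each is the share of HOXC9 sites with an event of that list within 100 bp. HOXC6 induced in the same kind of EBs for 12 h had an event at 73.33% (72.1 to 74.5) of EB-only sites and at 2.962% (2.42 to 3.61) of day 3-only sites, 70.4 points apart (69 to 71.6). Shared sites ranked in EBs had 50.63% and those ranked at day 3 had 23.18%. By the labels the HOXC6 and HOXC9 EB libraries were run on 1 flow cell, so run and stage cannot be told apart in this pair.

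HOXC9 at day 4, after 48 h of Dox, showed the reverse. Its events lay at 3.502% (3.05 to 4.02) of EB-only sites and 90.1% (89 to 91.1) of day 3-only sites, -86.6 points apart (-87.7 to -85.4). Counting only the top 10000 events of the day 4 list, the difference was -49.3 points (-51.1 to -47.6). Shared sites ranked at day 3 had 96.08%. By its columns the day 4 list was called together with the day 3 HOXC9 list, which can align events between them.

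The other 6 HOX factors assayed at day 3 had events at more day 3-only than EB-only sites. Of these HOXA9, a paralog of HOXC9, had an event at 4.01% of EB-only and 90.92% of day 3-only sites. HOXC8 had 2.921% and 75.06%, HOXD9 2.631% and 75.64%, HOXC10 0.7258% and 69.08%, and HOXC6 0.998% and 51.37%. HOXC13, the most posterior factor, stood apart with 16.59% of EB-only and 38.5% of day 3-only sites, and its highest share was at shared sites, at 65.81% and 65.8%. These lists differ in length, with 115819 events for HOXC13, 62885 for HOXA9, 26859 for HOXC10 and 17898 for HOXC6. A longer list can meet more sites, and the part of list length in these shares was not tested. None of the 6 had an event at 78.3% of EB-only sites and at 2.866% of day 3-only sites. By their columns these lists, HOXC8 aside, were called together with day 3 HOXC9 and against the same control library. HOXC10, HOXA9, HOXD9 and HOXC13 each included 1 library from a line with another tag or antibody.

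The cofactor MEIS, assayed at day 3 with 1 library from iHoxc9.V5 cells, a line with another tag, had an event at 54.84% (53.1 to 56.6) of day 3-only sites and 45.7% of shared sites ranked at day 3. Shared sites ranked in EBs had 20.61% and EB-only sites 0.5625%. Day 3-only sites with a MEIS event held TGACAG at 15.56% against 9.661% without one (5.9 points, 3.58 to 8.19), and TGATTTAT at 8.537% against 2.398% (6.14 points, 4.59 to 7.71). PBX at day 4 gave 1164 events in all, with 11 day 3-only sites and 1 EB-only site among them, too few to compare.

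The EB-only class was itself mixed. The 4041 EB-only sites with a HOXC6 event held TTTAT at 36.82% and the 1470 without one at 66.39%, a difference of -29.6 points (-32.4 to -26.7). Windows 1 kb from EB-only sites held TTTAT at 33%. TAAT was at 66.96% and 67.82%, and the interval of that difference included 0. The octamer was at 3.291% and 1.973% (1.32 points, 0.332 to 2.16), and promoters held 2.079% and 2.585% (-0.506 points, -1.53 to 0.343).

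**Figure D4:**
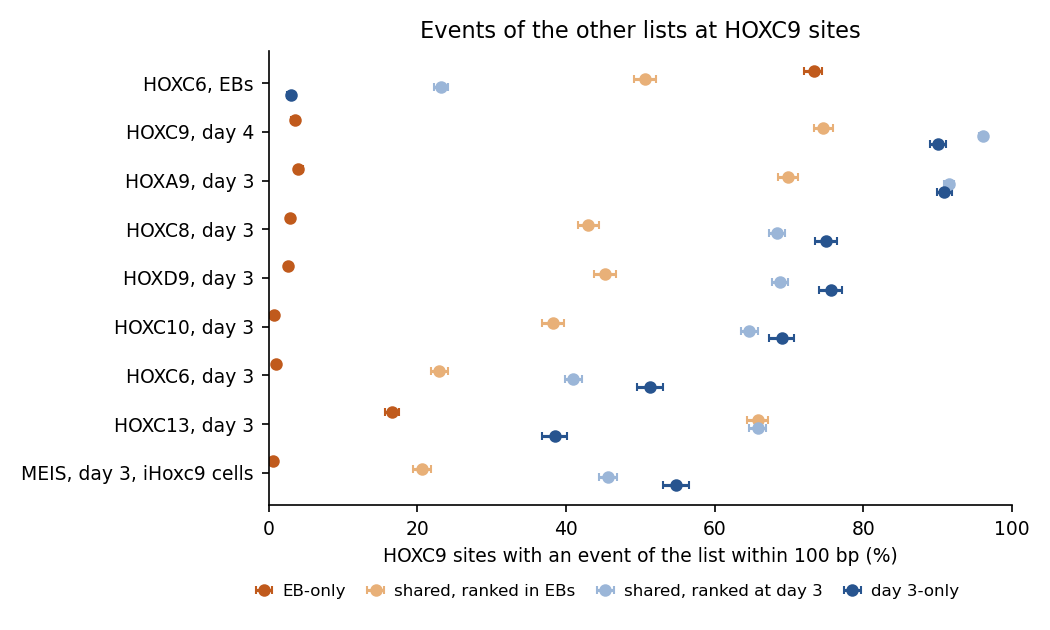
Share of HOXC9 sites with an event of another list within 100 bp (x axis, %) for 9 lists (y axis). Points are the 4 classes with 95% Wilson intervals. HOXC6 in EBs is at 73.33% of EB-only and 2.962% of day 3-only sites, and in the other 8 lists EB-only sites have the lowest share.

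Genes near the sites were counted within 50 kb of any TSS. Of 21755 protein-coding genes, 3619 (16.6%) had an EB-only site, 1297 (5.96%) a day 3-only site, 2294 (10.5%) a shared site ranked in EBs and 2542 (11.7%) a shared site ranked at day 3. Both private classes were near 360 genes, which were 1.65% of all. Events that lie close together count as separate sites, such as the day 3-only events 4.2 and 4.23 kb from Nkx6-1. Counts in the gene lists below stand beside these shares, the median count per gene over all genes was 0 in each class, and no list was tested.

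Genes of the pluripotent state were near EB-only sites more often than near day 3-only sites. Of 34 pluripotency genes 18 (52.9%) had an EB-only site, against 16.6% of all genes, and 3 (8.82%) a day 3-only site, against 5.96%. Shared sites were near 26.5% of them in the EB ranking, against 10.5% of all genes, and near 23.5% in the day 3 ranking, against 11.7%. The higher share was thus not particular to EB-only sites. Neighbouring genes can count the same site, as Dppa3 and Gdf3 did for 1 EB-only site. The median was 1 EB-only site per gene. Klf4, one of the reprogramming factors, had an EB-only site 11.9 kb away at rank 385 with 3364.0 estimated reads. Trim71, a stem cell RNA-binding protein, had one at 19.8 kb (rank 990), and Nr5a2, a nuclear receptor, at 46.6 kb (rank 1984). None of these 3 sites was in the day 4 HOXC9 list and all had a HOXC6 event in EBs. Over all EB-only sites those shares were 3.502% and 73.33%. Mycn, a regulator of growth, had 2 EB-only sites, the nearer 1.63 kb away at rank 3563.

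Promoters of stem cell genes held a few sites. Esrrb, a nuclear receptor of the naive state, had an EB-only site 0.745 kb from a start site (rank 5974), besides 5 shared sites ranked in EBs and 2 day 3-only sites 36.7 and 47.6 kb away. Sall4, a zinc finger factor, had 2 EB-only sites, 1 of them in a promoter. Lin28a, which blocks maturation of let-7 microRNA, had a shared promoter site at rank 94 in EBs with 5510.0 reads. That site lay 0.999 kb from an annotated start site, just inside the limit of 1 kb, and its day 3 partner stood at rank 37596. Pou5f1 and Nanog, the central factors of the state, had no EB-only site within 50 kb, and Sox2 had 2 shared sites ranked in EBs and 3 ranked at day 3. For Nanog, which starts at chr6:122707489, an EB-only site at chr6:122656606 (rank 4329) lay just past that limit.

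Epiblast genes showed a like count, with 7 of 14 (50%) near an EB-only site and 1 near a day 3-only site. Shared sites were near 35.7% of them in the EB ranking and 42.9% in the day 3 ranking. The neighbours Zic2 and Zic5, zinc finger factors, had the same 4 EB-only sites, and Pim2, a kinase on chromosome X, had 2. The strongest EB-only site lay 24.5 kb from Etv5 at rank 479. Dnmt3a, a DNA methyltransferase, carried the only day 3-only site of the list, in a promoter at rank 7233. Of 20 genes of the primitive streak and early mesoderm and endoderm, 3 (15%) had an EB-only site and 1 (5%) a day 3-only site, close to the shares of all genes.

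Genes of ventral spinal progenitors had 6 of 26 (23.1%) with an EB-only and 5 (19.2%) with a day 3-only site. Nkx6-1, which specifies ventral progenitors, had 4 day 3-only sites, 2 shared ones and no EB-only site. Its strongest lay in an intron 4.2 kb from a start site at rank 198, with 2204.1 reads and events of MEIS, HOXC10 and HOXC6 at day 3. Olig2, the factor of motor neuron progenitors, had 2 day 3-only sites, the stronger at rank 56 with 3388.6 reads, and 1 EB-only site 44.2 kb away at rank 5180. Sox21 had 2 day 3-only sites close together, 6.54 and 6.66 kb away, and Olig3 had 2 EB-only sites close together, 48.0 and 48.1 kb away.

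Among 28 genes of motor neurons and neuronal differentiation 7 (25%) had an EB-only and 8 (28.6%) a day 3-only site. Lhx3, a LIM factor of motor neurons, and Neurod1, a neurogenic factor, had 2 day 3-only sites each and no EB-only site. Pou3f2 had the strongest day 3-only site of the list, at rank 256 in an exon. Mnx1, which encodes HB9, and Stmn2, which encodes a neuronal tubulin-binding protein, had 2 EB-only and no day 3-only sites. Foxp1, a factor of limb-level motor neurons, had 1 of each, besides 7 shared sites ranked in EBs and 9 ranked at day 3, the strongest of which stood at rank 870 in EBs and 103 at day 3.

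The Hox clusters were bound mostly at shared sites. Inside the 4 clusters, which span 492 kb and 39 genes, lay 17 shared sites ranked in EBs and 36 ranked at day 3, against 3 EB-only and 8 day 3-only sites. Hoxa had 6, 14, 2 and 2 in that order, and Hoxb had 3, 8, 1 and 5. Hoxc, the cluster of the induced gene, had 7 and 8 shared and no private site, and Hoxd had 1 and 6 shared, no EB-only and 1 day 3-only site. Counted per gene, 31 of 39 (79.5%) had a day 3-only and 19 (48.7%) an EB-only site within 50 kb, but neighbouring genes count the same sites.

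Hox promoters were bound as well. Hoxb5 had 2 day 3-only promoter sites, at ranks 796 and 855, the stronger 0.084 kb from a start site, and Hoxb3, Hoxa2, Hoxa5 and Hoxd3 had 1 each. No Hox promoter held an EB-only site. Shared promoter sites were found at Hoxa3, Hoxa4, Hoxb8, Hoxc4, Hoxc5, Hoxc6 and Hoxd3 in both rankings, among them the Hoxc4 site printed above, at rank 20 at day 3 and paired with rank 709 in EBs.

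Genes of the RA pathway had 5 of 19 (26.3%) with an EB-only and 3 (15.8%) with a day 3-only site. In the EB ranking their 2 strongest were shared, among them a site in an intron of Aldh1a2, which makes RA, at rank 48 in EBs with its day 3 partner at rank 5021. The other lay 33.4 kb from Cyp26a1, which degrades RA, at rank 58 in EBs and 50 at day 3. Rdh10, an RA synthesis gene, had an EB-only site 24.4 kb away at rank 162, and Stra8 had 2 EB-only sites. Crabp1, an RA-binding protein, had a day 3-only site.

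Of the 10 genes for HOX cofactors of the TALE class, 5 (50%) had an EB-only site, against 16.6% of all genes. None had a day 3-only site, against 5.96% of all genes, and a list of 10 is too short to tell these apart. Shared sites were near 5 of the 10 in the EB ranking and 6 in the day 3 ranking. Pbx3 had 5 EB-only, 3 and 4 shared sites, and its strongest shared site stood at rank 32 in EBs with 7352.1 reads. An EB-only Pbx3 site at rank 461 lay 0.102 kb from a day 3 event, just past the limit of 100 bp. Meis1, Meis2 and Pknox2 had 1 EB-only site each. A shared site in an intron of Meis1, far from its start sites at 102 kb, stood at rank 9 in EBs and 76 at day 3.

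Axon guidance genes had 10 of 30 (33.3%) with an EB-only and 12 (40%) with a day 3-only site. Robo2, a Slit receptor, had 7 day 3-only and 1 EB-only site, and Slit2, a ligand of that family, had 2 and 1. Sema3e had 3 EB-only sites and Epha4, an ephrin receptor, 3 EB-only and 1 day 3-only. Unc5a, a netrin receptor, had the strongest day 3-only site of the list, at rank 1016, which lay 0.111 kb from an EB event and so just past the limit. Of 30 ribosomal protein genes, kept as genes active in every cell, 3 (10%) had an EB-only site and none a day 3-only site.

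**Figure D5:**
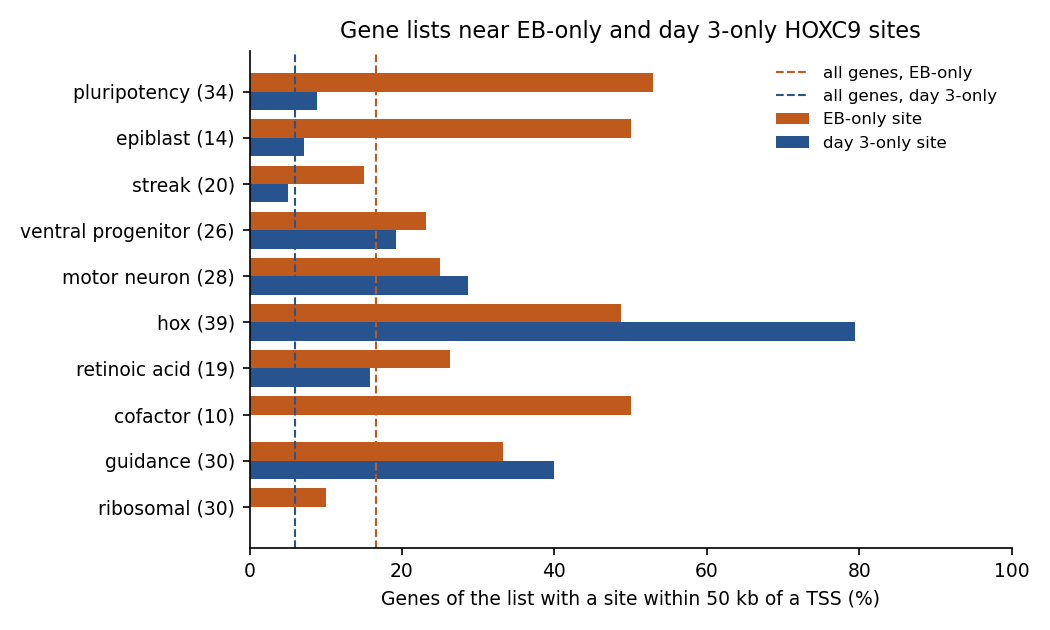
Share of the genes of each list (y axis, number of genes in parentheses) with an EB-only or a day 3-only site within 50 kb of a TSS (x axis, %). Dashed lines are the shares of all protein-coding genes, 16.6% and 5.96%. All lists but the streak (15%) and ribosomal (10%) ones stand to the right of the EB-only line, with pluripotency (52.9%), epiblast (50%), cofactor (50%) and hox genes (48.7%) farthest, and hox genes (79.5%) farthest to the right of the day 3-only line.

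Assigned to the nearest TSS, EB-only sites fell to 3159 genes and day 3-only sites to 1793, and 147 and 88 genes had 5 or more. The genes with most EB-only sites were Gtdc1 with 15, Stim2, an endoplasmic calcium sensor, with 13, and Anks1b, the teneurin Tenm4 and the latrophilin Adgrl3 with 12 each. Nrxn3 and Sox9 had 11, and Sox5 and Auts2 had 10. Nrxn3 is an adhesion protein of the synapse, and Sox9 and Sox5 are transcription factors. Day 3-only sites of these genes ranged from 0 at Anks1b and 1 at Gtdc1 and Sox5 to 7 at Nrxn3, 9 at Adgrl3 and 13 at Auts2.

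The genes with most day 3-only sites were Robo2 with 17, Auts2 with 13, and Nr2f1, the orphan nuclear receptor COUP-TFI, and Cntnap2 with 12 each. Gramd3 had 11, and Arrdc3, Npas3, Pcdh9, Tenm2 and Tenm3 had 10. EB-only sites of these genes ranged from 2 at Nr2f1, Gramd3 and Arrdc3 and 4 at Robo2 to 8 at Tenm2, 9 at Tenm3 and 10 at Auts2. Auts2 was in both groups, with 10 EB-only, 13 day 3-only and up to 32 shared sites. Most of these genes are long, up to 2245 kb for Cntnap2, or stand alone in wide gene-poor regions like Sox9, which is 5.54 kb long. The part of that space in the counts was not tested.

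The 10 strongest EB-only sites, at ranks 5 to 49 in EBs with 10515.2 to 6405.4 reads, lay nearest to Cdkn2aip, Tmem170b, Dner, Smgc, Dnajb6, 4930452B06Rik, Pmp22, Chn1, Gm34302 and Epha4. Of these 9 had a HOXC6 event in EBs, with the site near Tmem170b the exception, and 1, near Pmp22, had a day 4 HOXC9 event. Over the whole EB-only class the shares were 73.33% and 3.502%. The site near Dner lay 0.103 kb from a day 3 event, also just past the limit. Distances of these EB-only sites to the nearest TSS ran from 6.02 kb (Chn1) to 119 kb (Dnajb6). The 10 strongest day 3-only sites, at ranks 42 to 195 with 3571.2 to 2219.4 reads, lay nearest to Prdm2, Olig2, Arrdc3, Paqr3, Pkia, Celf2, Pum3, Klf12, Cdh8 and Ext2. The site near Paqr3 lay 0.133 kb from an EB event. Nearest did not mean close, as these day 3-only sites lay 29.4 kb (Pum3) to 1114 kb (Celf2) from the nearest TSS. All 10 had events of day 4 HOXC9, MEIS and HOXC10, and none had a HOXC6 event in EBs. Over all day 3-only sites the shares were 90.1%, 54.84%, 69.08% and 2.962% in that order. The strongest day 3-only site thus stood at rank 42, against rank 5 for the strongest EB-only site.

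The strongest shared sites in EBs lay nearest to Crybg3, Hormad2, Eri3, Lrguk, Runx1t1, Zbtb10, Lrrc18, Meis1, Pappa and Psd3, at ranks 1 to 12. Their day 3 partners stood between rank 51, near Eri3, and rank 40326, near Psd3. At day 3 the strongest lay nearest to Slc25a26, Mef2c, Lhfp, Auts2, Prok2, Tbcel, Rgs4, Rims4, Adgrl2 and Zfp703, with EB partners from rank 80, near Auts2, to rank 39822, near Mef2c. All 10 of the latter had a day 4 HOXC9 event, as did 96.08% of all shared sites ranked at day 3. From the nearest TSS the strongest shared sites lay 2.41 to 344 kb away in EBs and 11.9 to 316 kb at day 3.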

How the data were processed

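The data are lists of binding events made by the authors from ChIP-seq libraries. Per the labels and the study's methods, reads were aligned to mm10 with Bowtie 1.0.1, keeping single best alignments, and events were called over pooled replicates against a control library with MultiGPS at a q-value of 0.001, which uses edgeR 3.22.5. Picard 2.8.2 is also named in the submitters' notes. Per event, the authors deposited the caller's estimated counts of ChIP and of scaled control reads, a log2 fold over control, and a log2 q-value, a score used here only in an alternative ranking. Columns that compare conditions hold the authors' own results and were not used.

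Events were ranked by estimated ChIP counts, and classes were built in Python 3.11.15 (numpy, pandas). Genes came from GENCODE vM21 and sequence from GRCm38.p6. Motifs were searched on both strands within 50 bp. Shares have 95% Wilson intervals and differences 95% Newcombe intervals. A difference was called when its interval excluded 0. Intervals treat the sites compared as independent, although events of a class can lie close together, and cover the counting of sites only. No p-values were computed, since replicates are pooled. The class counts, motif search and Newcombe interval were tested on simulated data. Members, motifs and gene lists were chosen with earlier results of these data known. Genes named are, in each list, up to 6 with the most EB-only and 6 with the most day 3-only sites (the rule set no order for ties, which were broken by rank) and those with a promoter site, the 10 nearest genes with the most sites of each private class, and the genes nearest the 10 strongest sites of a class. Some genes that the rule names are not reported here. Pou5f1, Nanog, Sox2 and Aldh1a2 were named after their values were seen. Of the lists, 12 were used.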

Additional observations from a re-analysis of the deposited data

How the results depend on the processing

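Of 135 recomputed values 122 kept their direction and their side of the threshold, or for counts of genes stayed within 1.5 times. The distal difference ran from -15.8 to -7.04 points, TTTAT from -16.8 to -5.94, the octamer from 1.41 to 4.11, HOXC6 in EBs from 48.1 to 78.8 and HOXC9 at day 4 from -92 to -49.3, all with intervals that excluded 0 under every alternative run for them. The difference in median GC content was 2.97 points in all 10 alternatives run for it, as medians over such short windows move in whole bases. Counting only the top 10000 of the other list reversed the difference in sharing to -0.86 points. Promoters of 2 kb gave a promoter difference of 3.32 points and those of 500 bp gave 0.37 points, with an interval that included 0. The intron difference, not called in the report, passed with the top 5000 (4.1 points), with only the top 10000 of the other list (1.67), with lists of equal length (2.15) and without repeat-masked windows (2.51). Genes of the 250 listed with an EB-only site numbered 83, and 51 with the top 5000, 132 with the top 20000 and 30 within 10 kb. Those with a day 3-only site numbered 64, and 25, 104 and 23 in that order, and 106 with only the top 10000 of the other list. The cause of these shifts was not tested. The GC bands and the removal of repeat-masked windows were chosen after seeing the data. No paired analysis was possible because the lists pool their libraries, and for the same reason no library could be left out. Differences between differentiations are therefore not covered by any interval.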

Other observations

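CAGCTG, an E-box of neurogenic bHLH factors, was found at 7.313% of EB-only and 8.917% of day 3-only sites, -1.6 points apart (-2.84 to -0.416), and at 8.822% and 7.507% of the shared sets. Windows 1 kb away held it at 3.81% to 4%. Among EB-only sites it was more frequent where HOXC6 also had an event, at 8.067% against 5.238% (2.83 points, 1.34 to 4.18).

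Sites with no event in any of the other 10 lists made up 17.82% of EB-only sites (16.8 to 18.9), 3.275% of shared sites ranked in EBs, 0.2624% of shared sites ranked at day 3 and 0.5732% of day 3-only sites. At the other end, all 6 other HOX factors of day 3 had an event at 21.49% of shared sites ranked at day 3, 14.94% of day 3-only sites and 11.52% of shared sites ranked in EBs, and at 2 EB-only sites.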
